A study of Mus musculus with 8 samples.

Results

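Interferon-stimulated genes are the genes that cells switch on in response to interferons, and 43 of them were followed here across whole lung cells and 3 types of lung fibroblast. They were chosen by name from general knowledge of the family, with earlier results of these data known. Of them, Mx1 had been seen to differ between the fibroblast types, so its values are given as a description with no test. All 43 had a probe on the array, out of 24027 named genes there, and all 43 were among the 17472 genes tested after a filter on dim probes. The results below ask whether the other 42 followed Mx1.

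Interferons bind receptors at the cell surface, whose JAK kinases phosphorylate STAT proteins. Transcription factor complexes then bind short promoter elements, the interferon-stimulated response element for type I and type III interferons and the gamma-activated site for interferon gamma. The induced proteins sense viral RNA, degrade it, block viral entry, assembly or release, and damage the membranes around intracellular microbes. Many cells keep a low tonic level of them without infection.

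Expression was measured on 8 single-colour Agilent mouse arrays in 4 groups of 2 samples that were prepared independently. The pulmonary single cells (arrays Pu1 and Pu2) are the unsorted suspension of the lung. Fibroblasts of the A-type (arrays A1 and A2), of the B-type (B1 and B2) and of the C-type (C1 and C2) were sorted from such suspensions with antibodies to Pdgfra, Sca-1 and Thy-1 and to the lineage markers E-Cadherin, CD45, TER119, CD31, Lyve-1 and CD146. All samples came from adult female C57BL/6 mice aged 12 to 16 weeks, with 50000 cells and 10 ng of amplified RNA per sample. The sources used here do not say which combination of the 3 surface proteins defines each type, or how many mice lie behind a sample. The mouse strain limits any reading of 3 members: C57BL/6 mice carry a defective Mx1 gene and a truncated Oas1b, and RefSeq lists Mx1, Mx2 and Oas1b as transcribed pseudogenes in this strain's genome.

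Levels are log2 signal minus the array's 75th percentile, so 0 is the brightness that 75% of probes stay under, and a level of a probe is compared only with the same probe on other arrays. The signal at that percentile was 110 to 250 units and 54.6% to 68.7% of spots were well above background. The correlation between the 2 arrays of a group was 0.915 for the pulmonary single cells, 0.985 for the A-type, 0.985 for the B-type and 0.946 for the C-type, so the C-type and pulmonary pairs were less alike. The labels were checked against fibroblast markers, and all 6 of that list (Pdgfra, Col1a1, Col1a2, Col3a1, Dcn and Lum) were higher in the fibroblasts than in the pulmonary single cells (limma, adjusted p under 0.05). Both pulmonary arrays lie on slide 1 and all 6 fibroblast arrays on slide 2, each slide with its own scan. Slide and cell group therefore cannot be told apart when fibroblasts are set against pulmonary single cells, whereas the 3 types share a slide. With only 2 arrays in a group, the precision of every mean is low.

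Mx1, a dynamin-like GTPase that acts against influenza viruses in the nucleus, was well above background in C-type fibroblasts and not in the other types. Its probe, at chr16:97668644-97668703 on the minus strand in the older mm9 assembly that the array files use, gave log2 levels of -2.37 and -2.34 on C1 and C2. On A1 and A2 the levels were -5.49 and -5.58, and on B1 and B2 they were -5.09 and -5.33, and none of these 4 values was well above background. Pu1 and Pu2 read -3.29 and -2.33. The C-type arrays thus lay at or near the upper pulmonary array, and far above the A-type and B-type arrays with no overlap. Since the dim groups give only a limit, the C-type level was at least 3.18-fold that of the A-type and at least 3.64-fold that of the B-type. The measured differences, 3.18 and 2.85 on the log2 scale, shrank to 0.75 and 0.60 when background was corrected by the normexp model, which compresses dim probes.

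Markers of other cells were not level across the C-type arrays. The summed signal of 7 alveolar epithelial markers, relative to each array's 75th percentile, was 10.1 on C1 and 3.40 on C2, against 1.05 to 1.46 on the A-type and B-type arrays and 255 to 263 on the pulmonary arrays. Sftpc, the surfactant protein C gene, was 3.58 log2 units higher in the C-type than in the B-type (limma, adjusted p = 0.0339). For 2 erythroid markers the sum was 1.94 on C1 and 0.496 on C2, and 0.313 to 0.491 on the A-type and B-type arrays. S100a8, S100a9 and Lyz2, genes of myeloid cells, were above background on C1 and on no other fibroblast array. Lyz2 belongs to a list of 8 macrophage and dendritic cell markers. Their sums were 28.3 on C1 and 26.0 on C2, within the 25.1 to 30.5 of the A-type and B-type arrays. Other sums were as high or higher on C2. For 4 plasmacytoid dendritic cell markers they were 28.2 on C1 and 31.6 on C2, against 22.3 to 25.7 on the A-type and B-type arrays. Both pulmonary arrays read lower, Pu1 at 14.6. For C-type minus B-type, Irf8 of that list differed by 2.42 log2 units, Siglech by 0.38, Bst2 by 0.002 and Ccr9 by -0.93. For 3 neutrophil markers the sums were 161 and 175, against 135 to 154, and 159 and 243 on Pu1 and Pu2. S100a8 and S100a9 belong to that list, so its sum on C2 rests on another gene, with -0.14 for fibroblasts minus pulmonary single cells. Whether such cells were present on C2 was not tested. For 5 blood endothelial markers the sums were lower in the C-type, 4.30 on C1 and 4.47 on C2, against 5.34 to 7.54 on the A-type and B-type arrays. The 6 fibroblast markers summed to 484 and 473 on C1 and C2 and to 827 to 966 on the A-type and B-type arrays, and Dcn, the proteoglycan decorin, was lower in the C-type than in the B-type by 2.37 log2 units (limma, adjusted p = 0.0407). Their part in the Mx1 level was not tested.

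**Figure D1:**
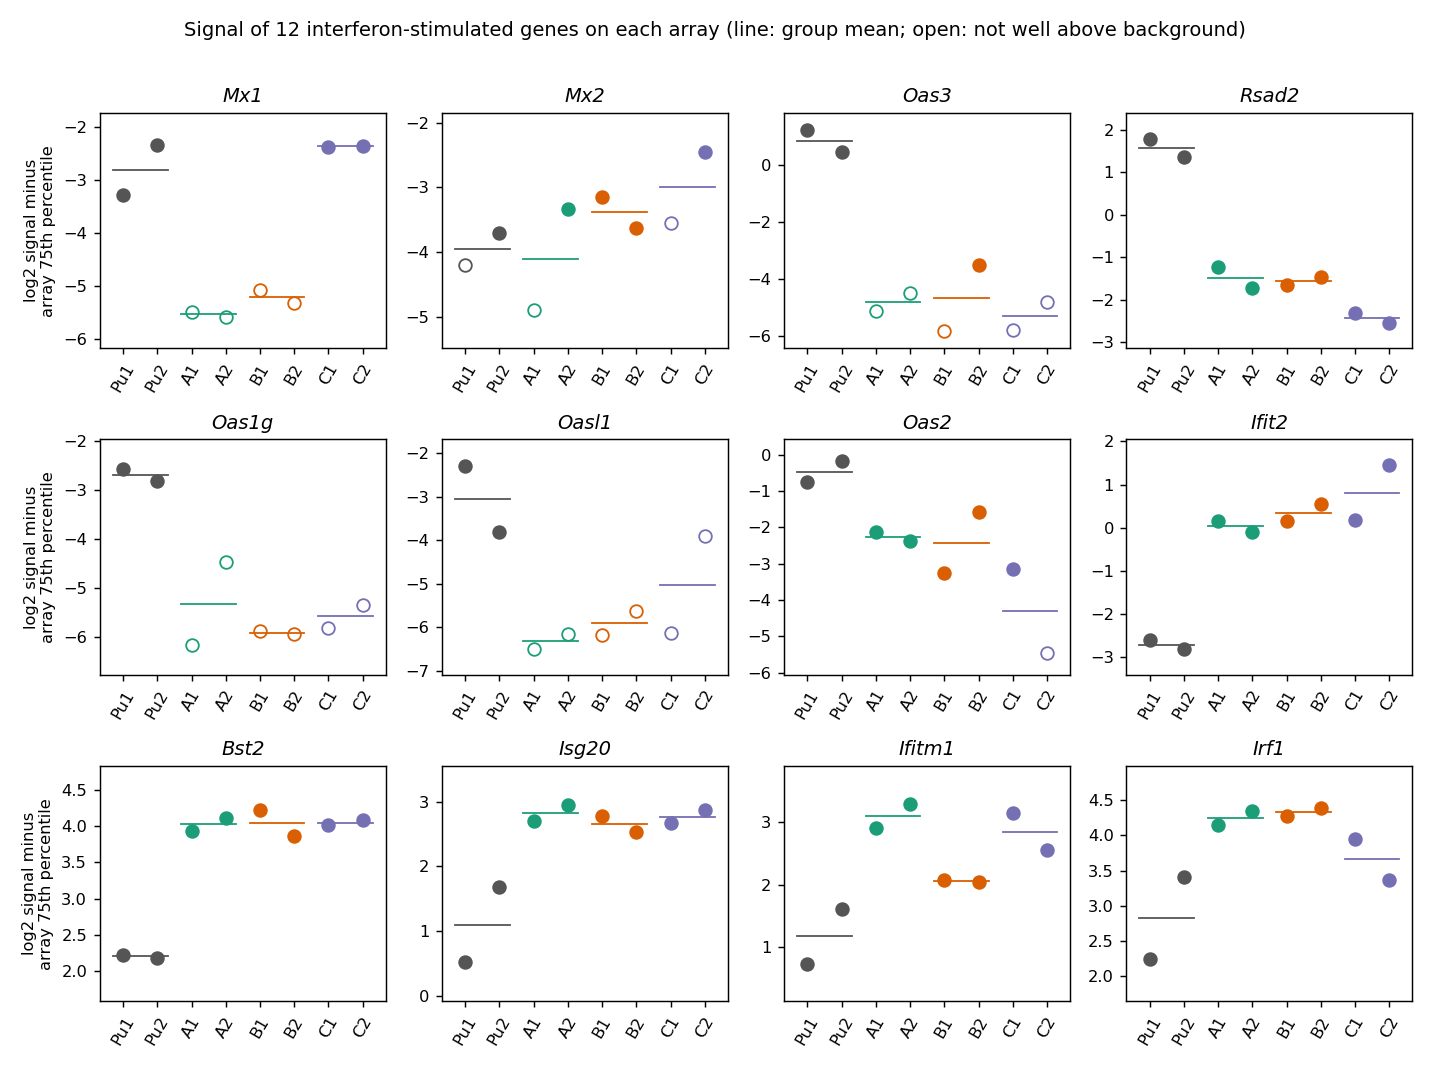
Log2 signal minus the array's 75th percentile (vertical axis) on each of the 8 arrays (horizontal axis) for Mx1, Mx2 and the 10 members with the largest called differences between fibroblasts and pulmonary single cells. Each point is an array, lines are group means of 2 arrays, and open points are not well above background. Mx1 sits near -2.4 on both C-type arrays and under -5 on the A-type and B-type arrays, whereas Oas3 and Rsad2 are high on the pulmonary arrays alone and Ifit2 and Bst2 are high on all 6 fibroblast arrays.

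None of the other members was called higher in the C-type. Of the 42, 0 were called higher or lower in the C-type than in the A-type (limma, Benjamini-Hochberg adjusted p under 0.05 over all genes tested), where 0.389% of all genes were called. Against the B-type 0 were called too, where 2.43% of all genes were. Between B-type and A-type 0 members were called, and 0% of all genes. At an unadjusted p under 0.05, 5 members stood out between C-type and A-type (11.9% of members, against 13% of all genes) and 5 between C-type and B-type (against 15.2% of all genes). All of these read lower in the C-type, as did 7.64% of all genes against the A-type and 8.8% against the B-type. The single member at that level between B-type and A-type was Ifitm1, which read lower in the B-type, against 3.24% of all genes in either direction and 1.87% lower.

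The size of the differences between types was near that of other genes. The median log2 difference of the 42 members was -0.13 for C-type minus A-type, against -0.06 over all genes (0.07 with normexp). For C-type minus B-type it was -0.05, against -0.06 over all genes, and it turned to 0.01 with quantile scaling. For B-type minus A-type the medians were 0.02 and 0.01, and that of the members turned to -0.01 when the percentile was taken over detected probes. At least 2-fold differences, as measured, were seen in 7 members (16.7%) between C-type and A-type and in 16.0% of all genes, and in 5 members (11.9%) between C-type and B-type and in 17.6% of all genes. The C-type arrays serve in both comparisons, so these are not independent of each other.

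A missed threshold does not show that levels were alike, and the intervals say what could have been seen. The 95% interval of a member's difference between types reached 0.93 log2 units to either side at the median, and from 0.63 to 1.93 over the members. The highest upper limit was that of Oasl1 in both comparisons, at 3.15 for C-type minus A-type and 2.72 for C-type minus B-type. Oasl1 was above background on no fibroblast array, so these limits rest on background signal. In data simulated from these arrays, the test between C-type and A-type recovered 25.4% of 4-fold changes and 65.2% of 8-fold changes among 17472 genes, and 0% of 2-fold changes.

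**Figure D2:**
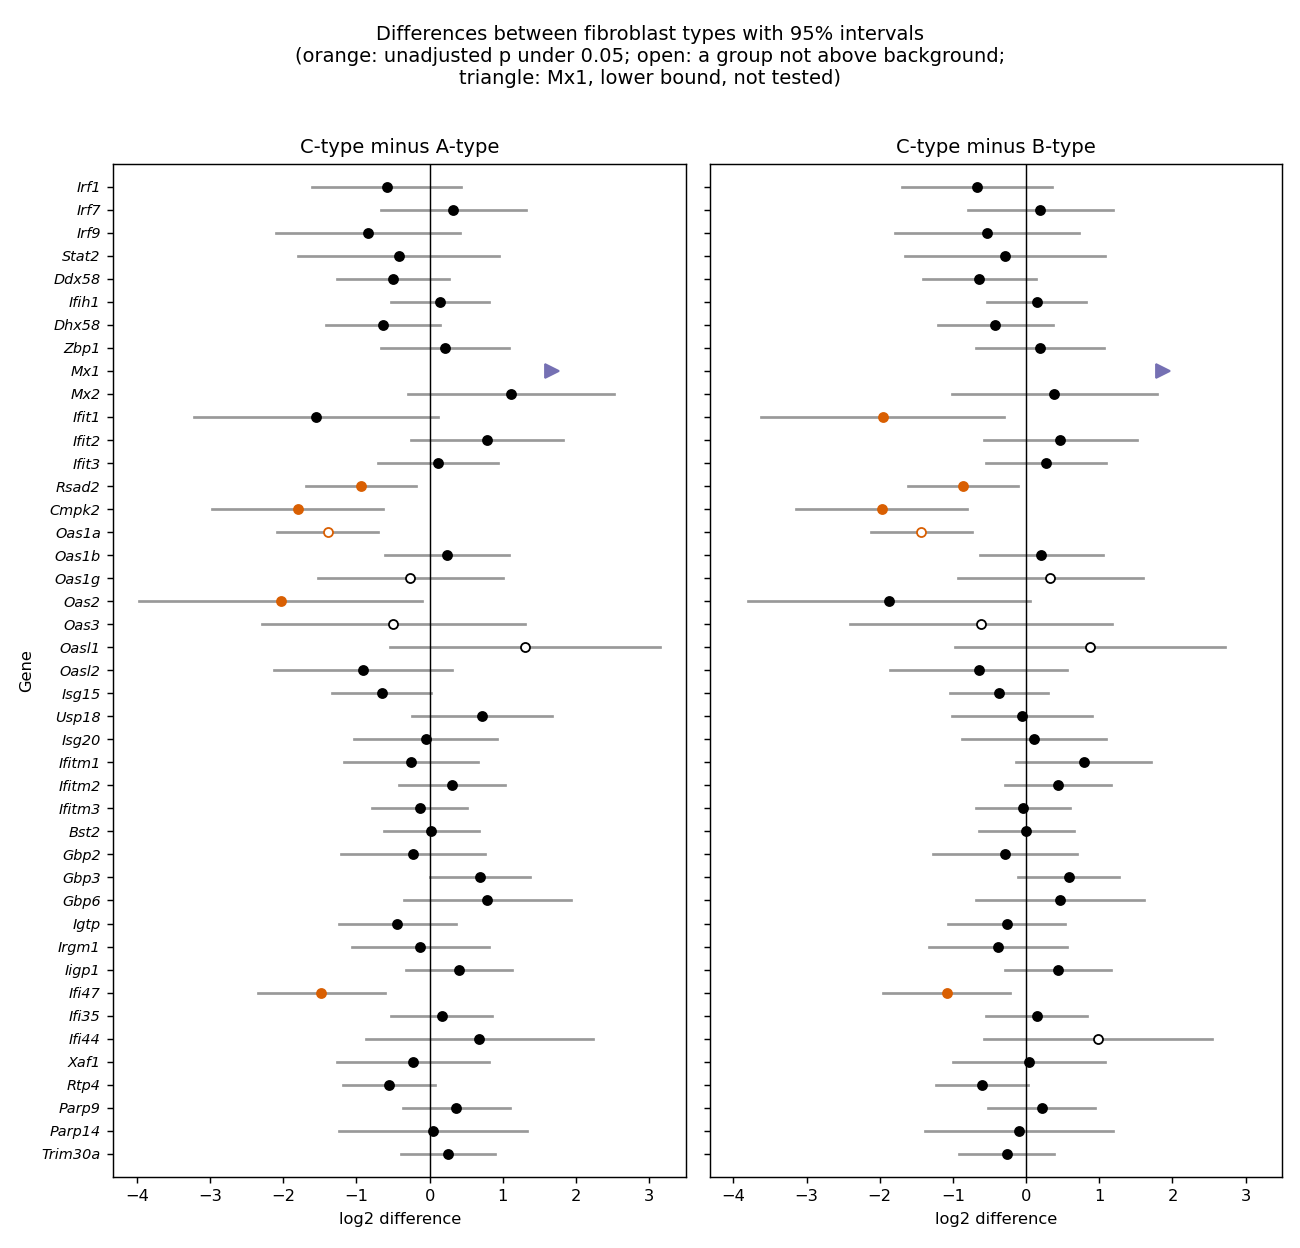
Log2 differences (horizontal axis) of the 43 genes (vertical axis) for C-type minus A-type and C-type minus B-type, with 95% intervals from limma. Orange points have an unadjusted p under 0.05, open points mark genes for which a group was not above background, and the triangle is the lower bound of Mx1, which has no test. The orange points all lie to the left of 0, and Mx1 stands at 1.67 and 1.86 to the right.

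Mx2, the neighbour of Mx1 on chromosome 16 and a related GTPase, was near background. Its levels were -4.19 and -3.71 on the pulmonary arrays, -4.89 and -3.33 on the A-type, -3.15 and -3.62 on the B-type, and -3.55 and -2.45 on the C-type. C2 was the highest array and A1 the lowest, but the groups overlapped, and both arrays were well above background in the B-type alone. The measured difference for C-type minus A-type was 1.11 ± 0.59 (SE), with an adjusted p of 0.481 by limma.

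Among members that read lower in the C-type, some were alike on its arrays and others were not. Oas1a, an oligoadenylate synthetase, was at -3.88 and -3.71 on C1 and C2 and was not above background there, against -2.54, -2.26, -2.15 and -2.58 on A1, A2, B1 and B2. The groups did not overlap, and the A-type and B-type levels were at least 2.32-fold and at least 2.39-fold that of the C-type (adjusted p = 0.108 and 0.06, limma). A second Oas1a probe, less bright over the arrays, gave a difference of only -0.25 for C-type minus A-type. Cmpk2, a nucleotide kinase of mitochondria that lies beside Rsad2, read 0.69 and -0.83 on C1 and C2 and 1.53 to 2.05 on the A-type and B-type arrays, a difference of -1.80 ± 0.50 from the A-type and -1.97 ± 0.50 from the B-type (adjusted p = 0.197 and 0.105, limma). Its second probe gave -0.69 and -0.91. Ifit1 read -2.74 on C1 and -5.16 on C2, where it was not above background. It read -2.61 to -1.90 on the A-type and B-type arrays, so C1 lay close to A2. For Oas1a the measured difference for C-type minus B-type was -1.43, which does not depend on the pulmonary arrays.

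Counted by arrays, both C-type arrays lay below all 4 A-type and B-type arrays in 15 of the 42 members, against 21.9% of all genes, and above all 4 in 5 members, against 17.7% of all genes. The lower ones were the transcription factors Irf1, Irf9 and Stat2, the RNA sensors Ddx58 and Dhx58, the effectors Ifit1, Rsad2, Cmpk2, Oas1a, Oasl2 and Isg15, the GTPases Gbp2, Irgm1 and Ifi47, and Rtp4. Ifit3, Ifitm2, Gbp3, Iigp1 and Parp9 were the higher ones, with differences of 0.12 to 0.69 from the A-type. Second probes did not all follow. For C-type minus A-type, those of the lower members Irf1, Isg15 and Irgm1 gave 0.68, 0.49 and 0.29. Those of Ddx58, Cmpk2 and Oas1a gave -0.18, -0.69 and -0.25. Of the higher members, the second probe of Iigp1 gave 0.97 and that of Parp9 -0.03. None of these members passed the test, and many of the gaps were small: for Stat2 the C-type arrays read 1.98 and 2.18 and the lowest of the other 4 read 2.35.

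**Figure D3:**
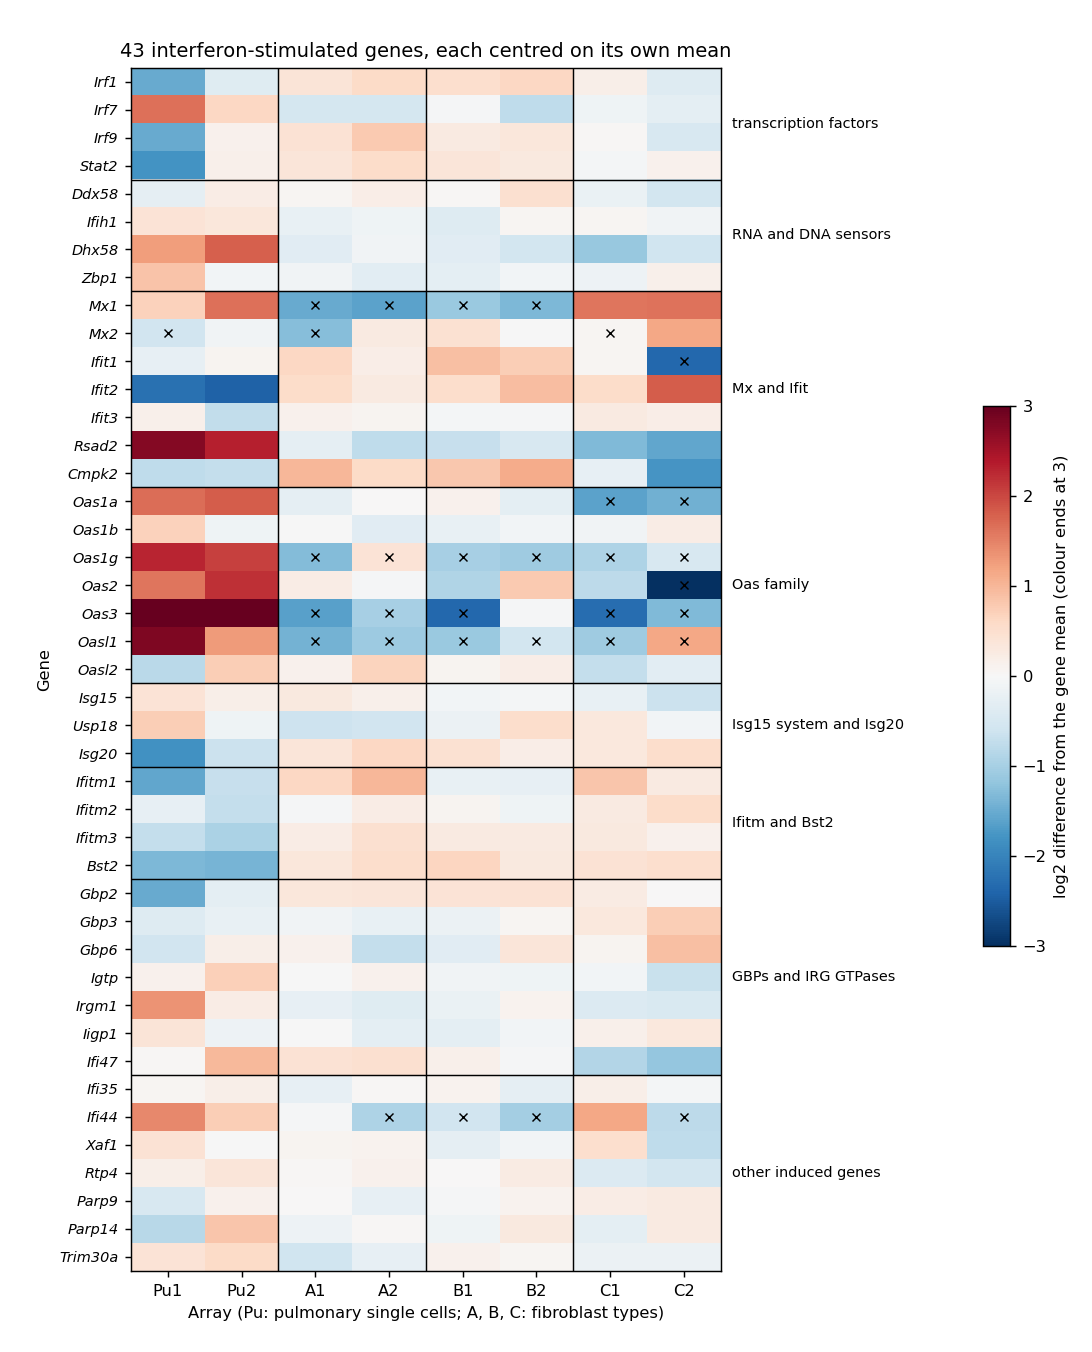
Heat map of the 43 genes (rows, ordered by role) on the 8 arrays (columns), as the log2 difference of each value from the gene's mean over the arrays. Red is above and blue below that mean, and crosses mark values not well above background. The Mx1 row is red on the C-type arrays and blue on the A-type and B-type arrays, and the Oas3 row is dark red on the pulmonary arrays.

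The genes with the profile most like Mx1 over the 8 arrays are named as a description, since 4 of the 8 Mx1 values were not above background and distances to them are not exact. With each profile centred on its mean and compared by Euclidean distance in log2 units, the nearest of 17471 genes were P2ry6, a receptor for nucleotides (1.47), the membrane peptidase gene Cpm (1.51), Sytl2, of the synaptotagmin-like family (1.55), the small GTPase gene Rab20 (1.59) and the transcription factor gene Dach1 (1.62). P2ry6 read 1.84 and 1.55 on C1 and C2, 0.31 and 2.00 on the pulmonary arrays, and from -1.20 to -0.34 on the A-type and B-type arrays.

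Set against the unsorted lung, members were called in both directions. Of the 42 members, 16 were called between the mean of the 3 fibroblast types and the pulmonary single cells (38.1%), against 36.7% of all genes. In the fibroblasts 7 were higher (20.4% of all genes were) and 9 lower (16.3% of all genes were). This split became 5 and 14 with the percentile over detected probes, where 39.2% of the calls over all genes were higher (55.7% here). Oas1g, Oas3, Oasl1 and Ifi44 were above background on both arrays of the pulmonary group alone and had to be lower elsewhere to pass the filter. Without them, 13 of 38 were called, 7 higher and 6 lower. The median difference of the members was -0.15, against 0.09 over all genes, but 0.21 against 0.45 under median scaling. All 6 fibroblast arrays lay above both pulmonary arrays in 7 members (23.5% of all genes) and below in 11 (20% of all genes). In a mixed sample such as the lung suspension, fewer cells of a type and less RNA per cell cannot be told apart.

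The Oas family, enzymes that make the oligoadenylate messenger that activates RNase L, had 5 of 7 members called lower in the fibroblasts (16.3% of all genes were) and 0 higher. Of these, Oas1g, Oas3 and Oasl1 passed the filter through the pulmonary group alone, and without them 2 of 4 were called. The filter thus favoured a lower fibroblast level for Oas1g, Oas3 and Oasl1, and their p-values carry less weight. Oas3 read 1.21 and 0.46 on the pulmonary arrays, and from -5.83 to -3.52 on the fibroblast arrays, where B2 was the only one above background. The groups were far apart, and the fibroblast mean was at least 24.5-fold lower (adjusted p = 0.000534, limma). Oas1g was at -2.57 and -2.81 in the pulmonary group and from -6.16 to -4.46 in the fibroblasts, with no fibroblast array above background, which is at least 2.40-fold lower (adjusted p = 0.00236, limma). Oasl1, a synthetase-like protein without that enzyme activity, was at -2.28 and -3.80 and from -6.50 to -3.91, again with no fibroblast array above background, at least 1.88-fold lower (adjusted p = 0.0154, limma). Its highest fibroblast array, C2, came close to Pu2. Under normexp the differences of Oas1g and Oasl1 were only -0.43 and -0.28 and were not called.

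Oas2 stood at -0.75 and -0.18 on the pulmonary arrays, -2.14 and -2.39 on the A-type, -3.26 and -1.59 on the B-type and -3.15 and -5.46 on the C-type. The fibroblast arrays all lay below the pulmonary ones but spread widely, and C2 was not above background. The difference was -2.53 ± 0.67 (adjusted p = 0.0237, limma). Without Pu1, Pu2 or A2 it was -2.81, -2.25 and -2.49, and the call was lost each time. Oas1a fell at least 4.82-fold (adjusted p = 0.000431, limma). Oas1b and Oasl2 were not called, with -0.37 and 0.04. The Oas1 genes are related neighbours, and cross-hybridisation between their probes was not tested.

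Among the Mx and Ifit group, Rsad2 and Ifit2 went opposite ways. Rsad2, viperin, which makes a chain-terminating nucleotide that stops viral polymerases, read 1.79 and 1.35 on the pulmonary arrays, -1.24 and -1.73 on the A-type, -1.66 and -1.47 on the B-type, and -2.31 and -2.54 on the C-type. All 6 fibroblast arrays were lower by a wide gap, 10.5-fold at the mean (-3.39 ± 0.26, adjusted p = 0.000119, limma). Ifit2, which binds viral RNA and holds back its translation, was at -2.61 and -2.81 on the pulmonary arrays and 0.16, -0.10, 0.15, 0.54, 0.18 and 1.44 on A1 to C2. Every fibroblast array was higher, 8.61-fold at the mean (3.11 ± 0.36, adjusted p = 0.000765, limma), and C2 was the highest. Ifit1 and Ifit3, related proteins, were not called, with 0.11 and 0.38.

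The genes of membrane proteins that block viral entry and release read higher in the fibroblasts. Of the 4, Ifitm1, Ifitm3 and Bst2 were called (20.4% of all genes were called higher), and Ifitm2, with 0.64, was not. Bst2, tetherin, which holds budding virions on the cell surface, read 2.22 and 2.19 on the pulmonary arrays and 3.93, 4.12, 4.23, 3.86, 4.01 and 4.08 on A1 to C2. The fibroblast arrays lay close together and well above the pulmonary ones, 3.56-fold at the mean (1.83 ± 0.23, adjusted p = 0.00096, limma). Ifitm1 was at 0.74 and 1.61 in the pulmonary group, 2.90 and 3.29 in the A-type, 2.07 and 2.04 in the B-type and 3.13 and 2.55 in the C-type. The B-type arrays were nearest to the pulmonary ones without reaching them, and the mean difference was 1.49 ± 0.32 (adjusted p = 0.0105, limma). Ifitm3 differed by 1.11 ± 0.22 (adjusted p = 0.00838, limma).

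Isg20, an exonuclease that degrades viral RNA, read 0.52 and 1.69 on the pulmonary arrays and 2.69, 2.95, 2.78, 2.53, 2.66 and 2.87 on A1 to C2. All fibroblast arrays were higher, by 1.65 ± 0.34 at the mean (adjusted p = 0.00905, limma), and a second, dimmer probe gave 0.79. Isg15, a ubiquitin-like modifier, and Usp18, which removes it, were not called, with -0.40 and -0.41.

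Of the transcription factors, Irf1 was higher and Irf7 lower. Irf1, an activator that answers mainly to interferon gamma, read 2.25 and 3.41 on the pulmonary arrays, 4.15 and 4.34 on the A-type, 4.28 and 4.38 on the B-type and 3.95 and 3.37 on the C-type. C2 fell just under Pu2, so the groups overlapped, and the difference was 1.25 ± 0.35 (adjusted p = 0.0303, limma). It was 0.67 without Pu1, and the call was lost there and without A1, A2, B1, B2 or C1 in turn. A second Irf1 probe gave 0.46, and 0.68 for C-type minus A-type, where the probe used here gave -0.59. Irf7, which drives interferon alpha genes, differed by -1.52 ± 0.34 (adjusted p = 0.0132, limma), and by -1.01 without Pu1, where it was not called. Irf9 and Stat2, partners in the interferon-stimulated complex, were not called, with 0.92 and 1.10, and on both Pu1 was the lowest array.

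In the remaining groups few members moved. Dhx58, a regulator of the RNA sensors, was lower by 2.03 ± 0.27 log2 units in the fibroblasts (adjusted p = 0.00138, limma), while Ddx58, Ifih1 and Zbp1 lay between -0.51 and 0.02. Of the 7 GTPases that act on the membranes of intracellular microbes, Gbp2 was higher (1.21 ± 0.34, adjusted p = 0.0299, limma) and Irgm1 lower (-1.05 ± 0.33, adjusted p = 0.0421, limma). Without Pu1, the differences of Gbp2 and Irgm1 were 0.60 and -0.49 and neither was called, and each call was also lost without A1, A2, B1, B2 or C1, that of Irgm1 without C2 too. The second Irgm1 probe gave -0.40. Of the 7 other induced genes 0 were called, with 2 at an unadjusted p under 0.05.

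**Figure D4:**
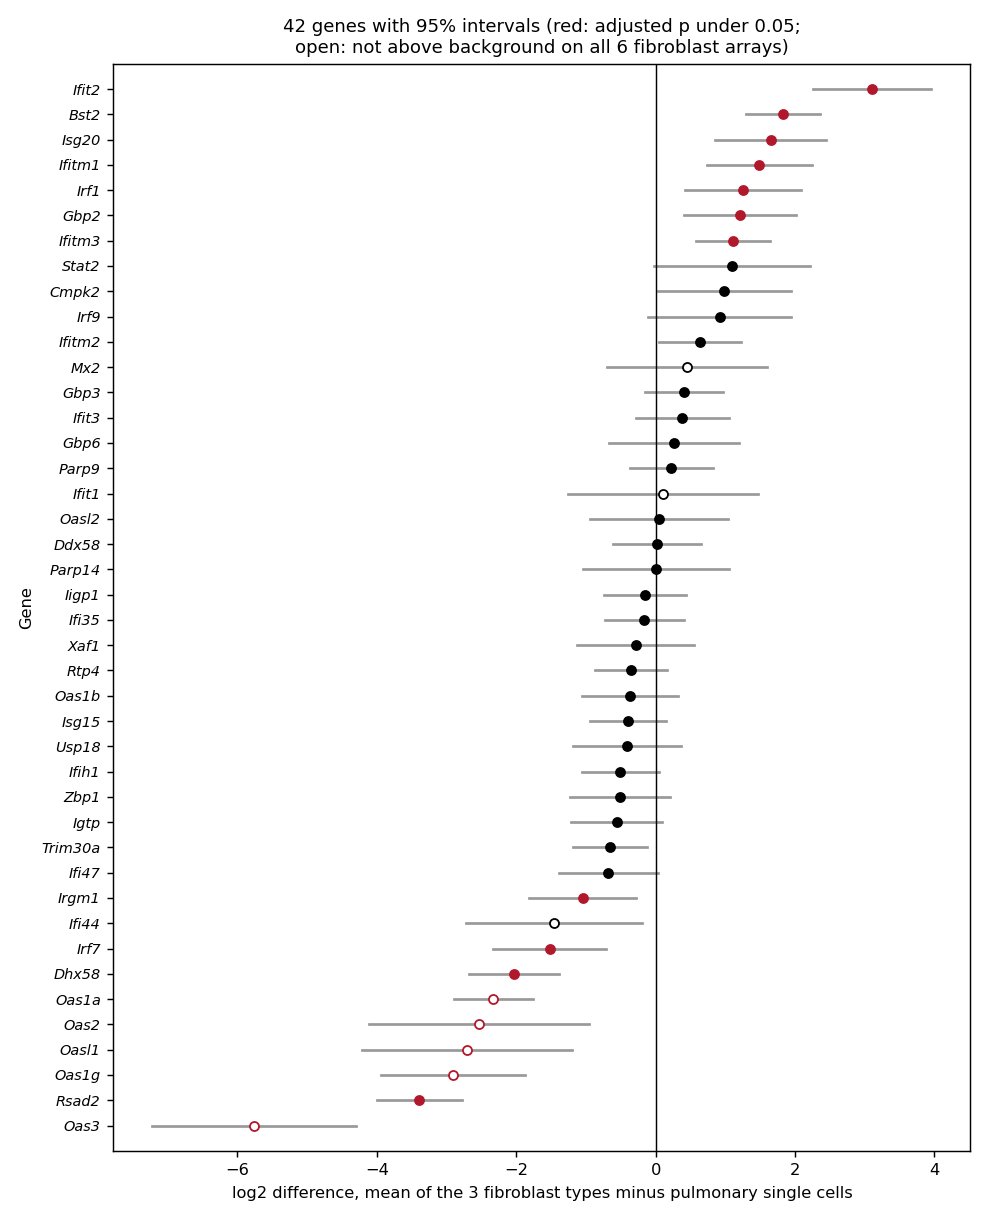
Log2 differences (horizontal axis) of 42 genes (vertical axis, sorted) between the mean of the 3 fibroblast types and the pulmonary single cells, with 95% intervals from limma. Red points have an adjusted p under 0.05 and open points mark genes not above background on all 6 fibroblast arrays. Oas3 lies farthest to the left at -5.76 and Ifit2 farthest to the right at 3.11.

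Other signals moved with this comparison. The summed level of 4 leukocyte markers was 124 to 172 on the pulmonary arrays and 0.496 to 0.845 on the fibroblast arrays. All 4 were called lower (16.3% of all genes were), with Laptm5 above background on no fibroblast array. For 8 macrophage and dendritic cell markers the sums were 377 to 572 and 25.1 to 30.5, with 7 of 8 called lower and H2-Aa and Mrc1 above background on no fibroblast array. Blood endothelial markers summed to 62.5 to 68.9 and 4.30 to 7.54, and all 5 were called lower. The immediate-early and stress genes went the other way, with sums of 346 to 452 on the pulmonary arrays and 1143 to 1290 on the fibroblast arrays. Of these, 7 of 10 were called higher (20.4% of all genes were), Egr1 by 1.91 log2 units. Their part in the differences of the interferon-stimulated genes was not tested.

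The promoters of the members were searched for the response element. The search used the 250 bases before each start in RefSeq's GRCm38.p6 annotation, in which 31 of the 43 members were found. Its core motif, GAAA, any 2 bases and GAAA again, on either strand and with overlapping copies counted, was present in 15 of 31 members (48.4%) and in 3.46% of 27025 genes, or 2.98% of 32851 promoters. Of the 7 searched members that were lower in the fibroblasts, 5 held it. Of the 7 that were higher, 2 did, and of the 17 that were not called, 8 did. The gamma-activated motif, TTC, any 3 bases and GAA, was in 6 of 31 members (19.4%) and in 8.13% of genes. The members were grouped as interferon targets to begin with, so the excess is a description, and a match is no proof of a site.

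The 5 sequences that follow belong to members with large differences from the pulmonary cells, 3 lower and 2 higher, and show that copies occur on both sides. They run 5′ to 3′ toward the start of the gene, and capitals mark that motif or its reverse complement. Oas3 (chr5:120777660-120777909, minus strand), Rsad2 (chr12:26456453-26456702, minus strand) and Oas1g (chr5:120887614-120887863, minus strand) were lower in the fibroblasts. Bst2 (chr8:71537473-71537722, minus strand) and Ifit2 (chr19:34550444-34550693, plus strand, the first of its listed starts) were higher.
Oas3: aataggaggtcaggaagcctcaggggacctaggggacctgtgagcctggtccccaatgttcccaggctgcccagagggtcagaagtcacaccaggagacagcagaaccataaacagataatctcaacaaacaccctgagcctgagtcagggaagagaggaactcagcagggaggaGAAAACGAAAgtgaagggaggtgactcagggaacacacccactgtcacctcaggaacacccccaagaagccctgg
Rsad2: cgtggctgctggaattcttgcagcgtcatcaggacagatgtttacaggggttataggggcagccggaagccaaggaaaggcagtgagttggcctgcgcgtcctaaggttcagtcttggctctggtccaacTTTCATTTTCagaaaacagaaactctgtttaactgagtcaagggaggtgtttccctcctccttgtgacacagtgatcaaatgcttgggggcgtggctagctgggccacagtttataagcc
Oas1g: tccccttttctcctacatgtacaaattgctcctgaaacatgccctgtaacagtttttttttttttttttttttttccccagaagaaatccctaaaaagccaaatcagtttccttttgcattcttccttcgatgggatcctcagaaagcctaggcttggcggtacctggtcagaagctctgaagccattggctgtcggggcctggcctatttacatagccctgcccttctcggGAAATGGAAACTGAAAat
Bst2: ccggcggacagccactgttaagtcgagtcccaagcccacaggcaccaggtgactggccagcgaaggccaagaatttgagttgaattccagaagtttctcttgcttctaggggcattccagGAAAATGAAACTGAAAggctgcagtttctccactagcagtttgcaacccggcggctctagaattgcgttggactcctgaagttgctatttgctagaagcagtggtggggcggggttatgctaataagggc
Ifit2: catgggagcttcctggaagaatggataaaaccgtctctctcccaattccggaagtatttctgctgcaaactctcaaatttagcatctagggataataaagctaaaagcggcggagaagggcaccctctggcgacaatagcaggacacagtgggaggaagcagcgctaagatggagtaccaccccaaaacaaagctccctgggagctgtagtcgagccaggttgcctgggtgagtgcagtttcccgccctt
The last copy ended 65 bases before the start in Oas3, 110 in Rsad2, 2 in Oas1g and 114 in Bst2. Oas1g and Bst2 each carry 2 overlapping copies, and the Ifit2 window holds none, which says only that these letters are not in it.

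Upstream of the members, 5 of 12 interferon ligand genes passed the filter and were tested. Ifnl3, of the type III interferons, and Ifna1, of the alpha family, were above background on all 8 arrays and were not called, with 0.18 and -1.05 for fibroblasts minus pulmonary single cells. Ifnab was above background in all groups but the C-type and was not called, with -0.40. Ifnb1, Ifna2, Ifna4, Ifnk and Ifne were not above background on both arrays of any group, and no named probe was found for Ifna9 and Ifnl2. Ifng, interferon gamma, was above background on both pulmonary arrays and on no fibroblast array, at least 6.69-fold lower there (adjusted p = 5.82e-05, limma). Ifna5 was lower by at least 1.39-fold (adjusted p = 0.0311, limma). Ifng and Ifna5 passed the filter through the pulmonary group alone. The filter thus favoured a lower fibroblast level for them, and their p-values carry less weight. Between the fibroblast types 0 of the 5 were called.

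Of the 14 receptors and signalling genes, 4 were higher in the fibroblasts than in the pulmonary single cells (20.4% of all genes were). Another 3 were lower (16.3% of all genes were). The chains of the type I and interferon gamma receptors were above background on all 8 arrays, whereas Ifnlr1, a chain of the type III receptor, was on both pulmonary arrays and 1 fibroblast array. Ifngr1, a chain of the interferon gamma receptor, was higher by 1.25 ± 0.22 (adjusted p = 0.00445, limma) and Ifnar2, a chain of the type I receptor, by 1.24 ± 0.30 (adjusted p = 0.0176, limma). Socs1, an inhibitor of JAK kinases, was higher by 1.61 ± 0.28 (adjusted p = 0.00449, limma), and the phosphatase gene Ptpn6 of blood cells was at least 32.4-fold lower (adjusted p = 0.00172, limma). Ptpn6 and Ifnlr1, both among the lower genes, passed the filter through the pulmonary group alone, which favoured a lower fibroblast level. Between the types 0 of the 14 were called. Socs1 read 0.25, 0.70, 0.66 and 0.71 on A1 to B2 and -0.63 and -1.38 on C1 and C2, an adjusted p of 0.0596 against the B-type.

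Of the 14 tested genes that sense microbes upstream of interferon, Irf8, a transcription factor best known in myeloid cells, was higher in the C-type than in the B-type. It read 1.98 and 2.67 on C1 and C2, -0.10 and -0.08 on B1 and B2, 0.67 and 0.86 on A1 and A2, and 1.40 and 1.20 on the pulmonary arrays. The C-type arrays were the highest of all 8, 2.42 ± 0.32 above the B-type (adjusted p = 0.0139, limma). Irf5 and Tlr7 were lower in the fibroblasts than in the pulmonary single cells, Irf5 by 2.82 ± 0.34 log2 units (adjusted p = 0.00083, limma), and Sting1, an adaptor for cytosolic DNA sensing, was higher by 1.48 ± 0.26 (adjusted p = 0.00489, limma).

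A further 40 interferon-stimulated genes outside the 43 were tested, and 1 was called between the types: Ifi204, a DNA sensor of the Ifi200 family, read 0.64 and 0.01 on C1 and C2 and 2.64 and 2.98 on B1 and B2, lower in the C-type by 2.48 ± 0.39 log2 units (adjusted p = 0.0259, limma). None was called higher in the C-type. Against the pulmonary single cells, 4 of the 40 were higher in the fibroblasts (20.4% of all genes were) and 12 lower (16.3% of all genes were). Gbp4 was at least 13.0-fold lower (adjusted p = 0.00137, limma), Cd274, the ligand of the checkpoint receptor PD-1, 11.5-fold lower (adjusted p = 0.000188, limma), and Ifi27 4.06-fold higher (adjusted p = 0.00069, limma).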

How the data were processed

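The deposited scanner files, written by Agilent Feature Extraction 10.10.1.1 per the file headers, hold background-subtracted intensity for each spot of 8 arrays. The authors' value table holds log2 values. Column by column it matched the log2 deposited signal less a constant (within 0.02 for 100% of 55653 probes), with medians of 4.84 to 4.85, and it served as an alternative. Probes were named through RefSeq.

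From the log2 signal, the 75th percentile of its array was subtracted. The filter kept probes that the scanner software called well above background on both arrays in 1 or more groups, and each gene was read from its brightest such probe. After 1065 spots flagged as outliers were left out, 17472 genes were tested in R 4.3.3 by limma 3.58.1 (lmFit and eBayes), with 4 group means over 8 arrays in one fit, 4 residual and 3.07 prior degrees of freedom, and Benjamini-Hochberg adjustment over all genes. Errors given as ± are standard errors of that fit, on 2 arrays per group. The test was tried on simulated data with 200 changed genes. Where the dimmer group had no array above background, "at least" sets its arrays no lower than the dimmest signal well above background there. For the fibroblast mean this holds when it does for at least 1 type.

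Samples were grouped by their labels, and replicate numbers did not pair them (correlation of deviations -0.08 to 0.06). Members, gene lists and the rule for naming genes were chosen with earlier results of these data known. Members with per-array values are Mx1, Mx2 and the 5 largest called differences in each direction, and members singled out for the C-type were chosen after their values were seen. Of each list, up to 4 genes with the largest differences are named, beside some chosen after their values were seen. Alternatives were 3 other scalings, normexp correction, the authors' table, 2 filters, the mean of a gene's probes, fewer arrays in the fit, another variance model, array weights, a replicate block and leaving out each of 8 arrays. Tables were made in Python 3.11.15 (pandas 2.3.3, numpy 2.4.6) and figures with matplotlib 3.10.9. Whether p-values cover spread between animals is not known, since the labels say only that samples were prepared independently.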

Additional observations from a re-analysis of the deposited data

How the results depend on the processing

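Leaving out an array in turn left 1 array in a group, so counts of calls are not given for those fits. Some of them called members between the C-type and the other types, all lower in the C-type. The number of all genes called changed widely between these fits. With normexp background correction 1 member, Cmpk2, was called between C-type and B-type, where 543 of 17472 genes were. With array weights 3112 of 17472 genes were called between fibroblasts and pulmonary single cells. Of the members 7 were called, 3 higher and 4 lower, all among the 16. These were Dhx58, Ifit2, Rsad2, Oas1a, Oas3, Isg20 and Bst2, which kept their call under every alternative run for them (19 each, 18 for Oas1a and Oas3). Of them, Oas3 passed the filter through the pulmonary group alone, which favoured a lower fibroblast level. Of 19 alternatives, Irgm1 lost its call in 13, Irf1 in 10, Gbp2 in 9 and Irf7 in 2, and of 18, Oas2 in 4, Oasl1 in 3 and Oas1g in 2. No called difference changed sign.

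The choice of scale sets the split of calls between fibroblasts and pulmonary single cells. Under the main scale 7 were higher and 9 lower. Median scaling gave 9 and 8, as did the authors' table, and the percentile taken over detected probes (those above background on every array) gave 5 and 14. Over all genes, 55.7% of 6413 calls were higher under the main scale and 71.5% of 7136 under median scaling. It was 71.65% of 7150 with the authors' table and 39.2% of 6394 with the percentile over detected probes. The median difference of all genes was 0.09, 0.45 and -0.22 under the main, median and last of these scales. With the replicate block 0, 0, 0 and 16 members were called in the 4 comparisons, 15 of the last shared with the main test, and Irgm1 was lost. Of 17472 genes, 0, 0, 309 and 5840 were called there. A block for slide could not be fitted against the pulmonary group, since slide and group coincide. Dim probes limit Mx1, Mx2, Oas1g, Oas3, Oasl1 and Ifi44, whose levels lay at or near background in most fibroblast arrays.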

Other observations

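Several members had more than 1 probe, and some probes of a gene differed. For Parp9, a mono-ADP-ribosyltransferase partner of Dtx3l, the brightest probe differed by 0.23 between the fibroblasts and the pulmonary single cells, and its other probe by -1.19 (adjusted p = 0.0142 in the limma fit over probes). That probe read 1.08 and 0.72 on the pulmonary arrays and from -0.53 to -0.02 on the fibroblast arrays. For Oas1a, by contrast, both probes were lower in the fibroblasts, by 2.33 and 3.04 log2 units. The probes of Ifitm1 gave 1.49 and 1.56. The 3 probes of Oas1b, which lie within a short stretch of the gene, differed by -0.37, -0.44 and 0.01 and were bright on all 8 arrays.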
